A study of Caenorhabditis elegans with 63 samples.

Results

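The change in microRNA (miRNA) levels between the fourth larval stage (L4) and the adult was measured in Caenorhabditis elegans that carry the drsh-1 allele cdb328. The libraries were chosen by their labels alone: the 3 Adult and the 3 L4 libraries of drsh-1(cdb328) made with the NEBNext small RNA kit, 6 of the 63 libraries of the series. All 276 mature miRNA arms in the table were used, and the plant spike-ins were set apart. The series asks how changes in drsh-1 affect single miRNAs, and its design text calls the strains deletion mutants. What cdb328 removes is not given in the labels.

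Both cdb328 groups were whole worms of the genotype drsh-1(cdb328), kept at 20 °C, at L4 (n = 3) and as Adults (n = 3). The reference for a normal stage change was wild type at L4 (n = 3) and as Adults (n = 3), grown at 20 °C and cloned with the same kit. The 6 libraries of a second allele, drsh-1(cdb330), entered the fit to help estimate the spread and are otherwise named once. The labels give no hours of age and do not say whether the replicates were separate cultures, so p-values measure the spread between these samples, which may be technical. In RNA of whole worms, fewer cells of a type and less miRNA per cell cannot be told apart.

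Drosha, the protein made from drsh-1, frees each miRNA hairpin from the long transcript that carries it, in the nucleus, and Dicer then cuts the hairpin into a duplex whose strands are the 5p and 3p arms. One strand is usually kept in Argonaute and the other, marked with a star in the file, is mostly lost. In worms the let-7 and lin-4 families are the heterochronic timers that set larval cell fates stage by stage, while the miR-35 family is made in the germline and the embryo and is needed for embryos to live.

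The 6 cdb328 libraries held 1891780 to 2511365 miRNA reads, and the 6 wild-type libraries 2130703 to 2835112. Spike-ins took 25.1% to 36.1% of the assigned reads in cdb328 and 23.8% to 33.8% in wild type. Levels are given as normalised CPM, which is the read count brought to a common library total with trimmed mean of M values (TMM) scaling, and fold changes as log2 of Adult over L4 from edgeR. An arm was called when the adjusted p of edgeR's quasi-likelihood test was below 0.05 after Benjamini-Hochberg adjustment over the 215 arms tested. Of the 61 arms too low to test, 21 had no read in any cdb328 library, and the highest count of an untested arm in a cdb328 library was 8.

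For most arms the change from larva to adult had the same sign in cdb328 as in wild type, 185 of 215. Of the 215 arms tested, 102 (47.4%) changed in cdb328, 35 of them (16.3%) higher and 67 (31.2%) lower in Adults. By at least 2-fold, 20 arms (9.3%) were higher and 25 (11.6%) lower. The 3 Adult libraries stood wholly above or wholly below the 3 L4 libraries for 121 arms (56.3%). In wild type the same fit called 144 arms (67.0%), 62 higher (28.8%) and 82 lower (38.1%), of which 28 (13.0%) and 26 (12.1%) changed by at least 2-fold. The median over all arms tested was -0.25 in cdb328 and -0.27 in wild type.

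The arms were largely shared. Of the 35 arms that rose in cdb328, 32 also rose in wild type, which is 91.4% of the cdb328 list and 51.6% of the wild-type list. Of the 67 that fell, 57 also fell in wild type, or 85.1% and 69.5% of each list. In neither direction was an arm called one way in cdb328 and the other way in wild type (0 arms). From the wild-type side, 21 of the 28 arms that rose at least 2-fold also rose in cdb328 (75.0%), and 18 of the 26 that fell at least 2-fold also fell (69.2%). The 15 exceptions were mostly rare arms in cdb328, where the highest Adult mean was that of miR-35-5p* at 35.2 normalised CPM. Some were less rare in wild type. There miR-790-5p had means of 197 at L4 and 66.8 in Adults, against 4.45 and 4.38 in cdb328. At L4 miR-82-5p* had a mean of 142 in wild type and 33.8 in cdb328. Low counts in cdb328 limit what its test can show for such arms.

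The stage changes of the 2 genotypes had a Pearson's r of 0.84 and a Spearman's rho of 0.82 across the 215 arms. This describes arms of 1 fit, which are not independent of each other, and the genotypes share no library. Over the 169 arms with at least 10 CPM, r was 0.88. The change was smaller in size in cdb328 than in wild type for 134 of the 215. This count depended on the scale, with 122 on the spike-in scale and 147 with total counts. Over the 169 arms with at least 10 CPM it was 100, and 91 on the spike-in scale.

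**Figure D1:**
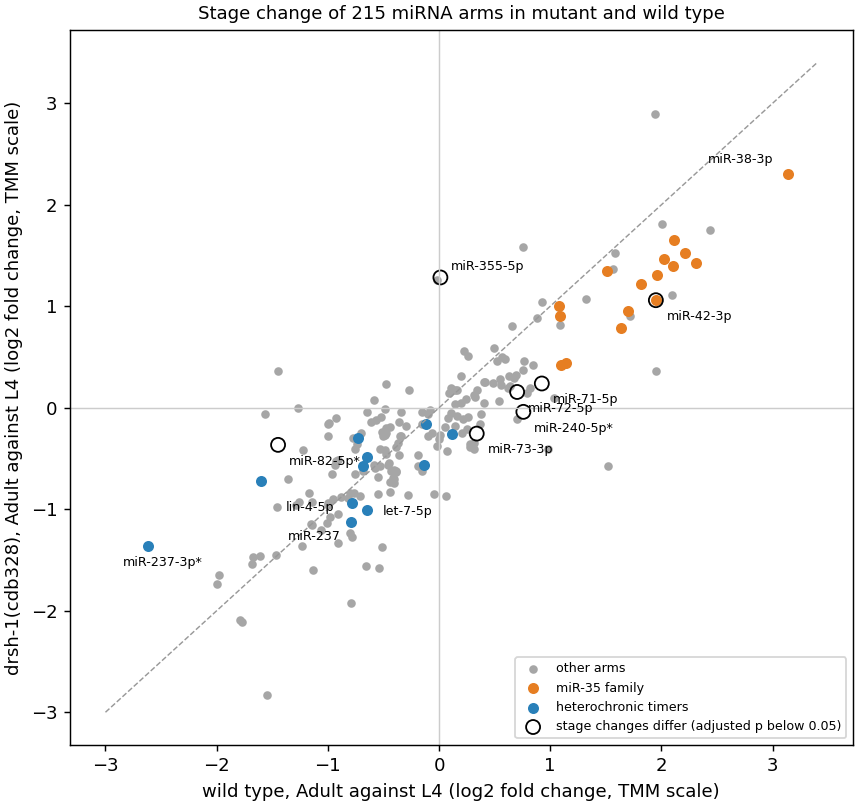
Each point is 1 of 215 miRNA arms, with the log2 fold change of Adult against L4 in wild type (x axis) and in drsh-1(cdb328) (y axis), both on the TMM scale; the dashed line marks equal changes. The miR-35 family (orange) lies in the upper right below the line and 10 of the 11 timer arms (blue) lie left of 0 in wild type, while all 11 lie below 0 in cdb328. Black rings mark the 7 arms whose stage changes differed between the genotypes, of which miR-355-5p lies farthest from the line.

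The scatter plot shows the shared direction. Only 7 arms passed the test of the difference, while 52 of 215 had an unadjusted p below 0.05 in edgeR's test. Uncalled arms also lie far from the line, such as the rare miR-796-5p (a difference of -2.10, edgeR adjusted p = 0.0874). The gene groups are taken in turn, beginning with the embryonic family. Its rise is reported as a result and is no separate check of the stage labels. Whether the genotypes were staged alike within L4 or as Adults was not tested.

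The miR-35 family rose in cdb328 Adults. Of its 16 arms tested, 14 rose and none fell, where 16.3% of all arms rose and 31.2% fell. The median was 1.26 against -0.25 for all arms. In wild type all 16 rose, with a median of 1.88. Together the arms took 7.28%, 8.20% and 7.43% of miRNA reads in the cdb328 L4 libraries and 17.0%, 16.4% and 16.3% in the Adult libraries. The Adult share was thus near that of wild-type Adults, 17.9% ± 1.29 (SD, n = 3), and the L4 share near that of wild-type L4, 6.74% ± 1.04 (SD, n = 3). For each of the 8 main 3p arms, every Adult library of cdb328 lay above every L4 library. Among all 132 main (unstarred) arms tested this held for 30.

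Among the members, miR-35-3p was the most read. It stood at 29603, 29821 and 30014 normalised CPM in the cdb328 L4 libraries and at 80315, 85969 and 81041 in the Adults, a log2 change of 1.47 ± 0.18 (SE; edgeR adjusted p = 5.12e-07). The libraries of a stage lay close together and the stages far apart. Its hairpin opens the cluster of mir-35 to mir-41 on chromosome II, 11537608 to 11538404 on the plus strand (WBcel235), inside an intron of Y62F5A.9 on the opposite strand.

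The steepest rise of the family was that of miR-38-3p from the same cluster. It went from 129, 118 and 149 normalised CPM at L4 to 722, 642 and 593 in Adults, a log2 change of 2.30 ± 0.17 (SE; edgeR adjusted p = 6.87e-10). The change in wild type was 3.14 ± 0.18, from 96.3 ± 18.1 to 845 ± 177 (SD, n = 3). The test of the difference between the genotypes did not pass (-0.83 ± 0.24, edgeR adjusted p = 0.0531).

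The other main arms of the cluster rose by amounts close to each other. The log2 changes were 1.34 for miR-36-3p, 1.22 for miR-37-3p, 1.40 for miR-39-3p, 1.31 for miR-40-3p and 1.52 for miR-41-3p, with standard errors from 0.15 to 0.25. The family member outside the cluster, miR-42-3p, rose the least of the main arms. It had 174, 172 and 174 normalised CPM at L4 and 346, 407 and 332 in Adults, a log2 change of 1.06 ± 0.17 (SE; edgeR adjusted p = 1.34e-05), and of 0.41 on the spike-in scale, where it was not called (edgeR adjusted p = 0.0576). The 2 star arms that did not pass were miR-35-5p* at 0.45 ± 0.29 (edgeR adjusted p = 0.206) and miR-37-5p* at 0.42 ± 0.29 (edgeR adjusted p = 0.233), both with at most 82 reads in a cdb328 library.

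**Figure D2:**
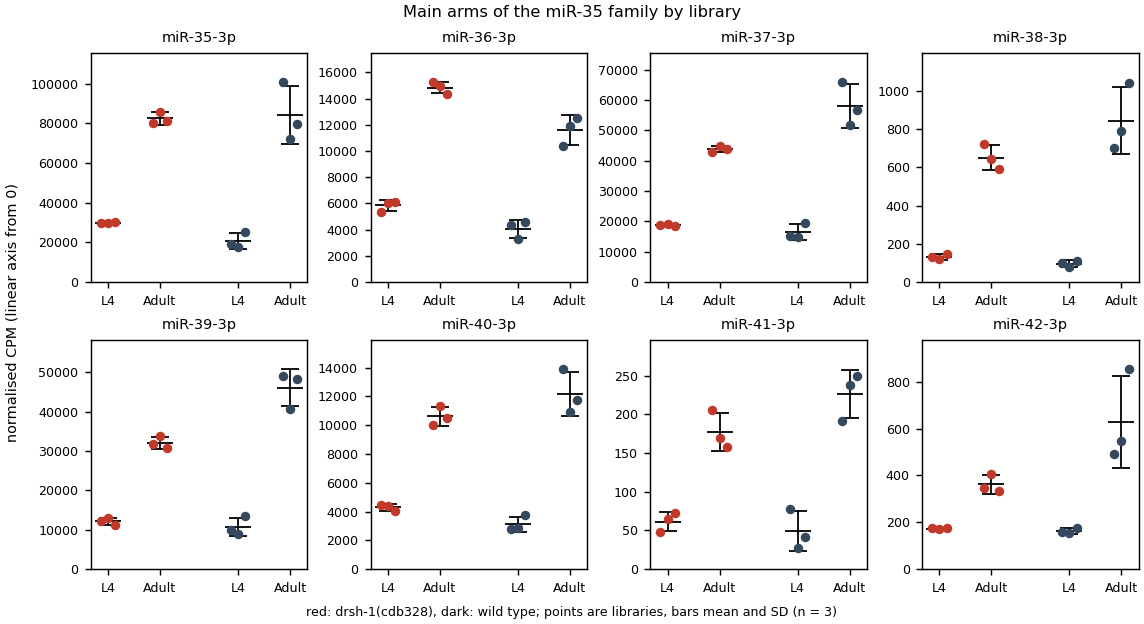
Normalised CPM (linear axes from 0) of the 8 main 3p arms of the miR-35 family in each L4 and Adult library of drsh-1(cdb328) (red) and wild type (dark); points are libraries and bars the mean and SD (n = 3). In every panel the 3 cdb328 Adult libraries lie above the 3 L4 libraries, for miR-35-3p at 80315 to 85969 against 29603 to 30014.

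On the TMM scale the size of the rise in cdb328 was below that in wild type for all 16 arms. The difference of the stage changes had a median of -0.68, against -0.14 over all arms tested, and ran from -0.89 to -0.08. On the spike-in scale the median was -0.57 for the family and 0.0061 for all arms. Only that of miR-42-3p passed the test, as given with the other differences further on. The panels of the 8 main arms show a higher mean at L4 in cdb328 than in wild type for each of them. For miR-35-3p the L4 level was 1.44-fold that of wild type (edgeR adjusted p = 0.0131), while the Adult level differed by a log2 of -0.03 ± 0.17 (SE; edgeR adjusted p = 0.905).

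The heterochronic timers fell. Of 11 arms of let-7, mir-48, mir-84, mir-241, lin-4 and mir-237 tested, 8 fell in cdb328, where 31.2% of all arms fell, and none rose, with a median of -0.58. The number that fell was 4 with DESeq2's size factors, 5 with TMM without the miR-35 family, 10 with total counts and 11 on the spike-in scale. In wild type 8 fell as well, with a median of -0.69, but they were not all the same arms. Of the 6 main arms, 5 fell in cdb328 and 3 in wild type. In wild type miR-48-5p (0.11) and miR-241-5p (-0.14) were not called. The star arms let-7-3p* and miR-84-3p* were called lower in wild type only. Their summed share of miRNA reads went from 7.11% ± 0.09 at L4 to 4.33% ± 0.06 in Adults of cdb328 (SD, n = 3), and from 7.10% ± 0.34 to 4.43% ± 0.27 in wild type. For none of the 11 arms did the stage change differ between the genotypes by the test (0 called).

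The namesake of the let-7 family, let-7-5p, drives the switch from larva to adult. It stood at 14087, 11995 and 14188 normalised CPM at L4 and at 6615, 6774 and 6654 in Adults of cdb328, a log2 change of -1.01 ± 0.12 (SE; edgeR adjusted p = 4.58e-07). The stages did not overlap. In wild type the change was -0.65 ± 0.12, from 10833 ± 278 to 6915 ± 1494 (SD, n = 3), and the difference between the genotypes did not pass (-0.36 ± 0.17, edgeR adjusted p = 0.188).

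The lin-4 family fell about as far. For lin-4-5p, which acts at the first larval switch, the cdb328 values were 3312, 3576 and 3631 normalised CPM at L4 and 1916, 1916 and 1647 in Adults, a log2 change of -0.94 ± 0.10 (SE; edgeR adjusted p = 2.03e-07). For its seed relative miR-237 they were 5446, 5247 and 5448 at L4 and 2433, 2619 and 2365 in Adults, a log2 change of -1.12 ± 0.11 (SE; edgeR adjusted p = 6.30e-08). All 3 arms of this family tested fell, where 31.2% of all arms fell. They also fell on each of the 5 scales described further on, as did 24.2% of all arms. The rare arm miR-237-3p* fell by 1.36 ± 0.29 in cdb328 and by 2.62 ± 0.29 in wild type, and the difference did not pass (edgeR adjusted p = 0.0874).

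Among the relatives of let-7 that act earlier, at the switch to the third larval stage, miR-48-5p and miR-84-5p moved little. For miR-48-5p the values were 42217, 40007 and 40259 normalised CPM at L4 and 31419, 36598 and 34415 in Adults, a log2 change of -0.26 ± 0.10 (SE; edgeR adjusted p = 0.0413). This call was lost when any cdb328 library other than Adult replicate 2 was left out (-0.20 to -0.27), and with DESeq2's size factors (-0.12). For miR-84-5p the change was -0.16 ± 0.10 (SE; edgeR adjusted p = 0.208), which did not pass. For miR-241-5p, rare in cdb328, the values were 131, 85.0 and 137 at L4 and 70.7, 81.8 and 86.3 in Adults. Its stages overlapped through L4 replicate 2, and the change was -0.56 ± 0.17 (SE; edgeR adjusted p = 0.00803). The call was lost without L4 replicate 3 (-0.44), with DESeq2's size factors (-0.42) and in a fit of only the groups compared (-0.36).

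**Figure D3:**
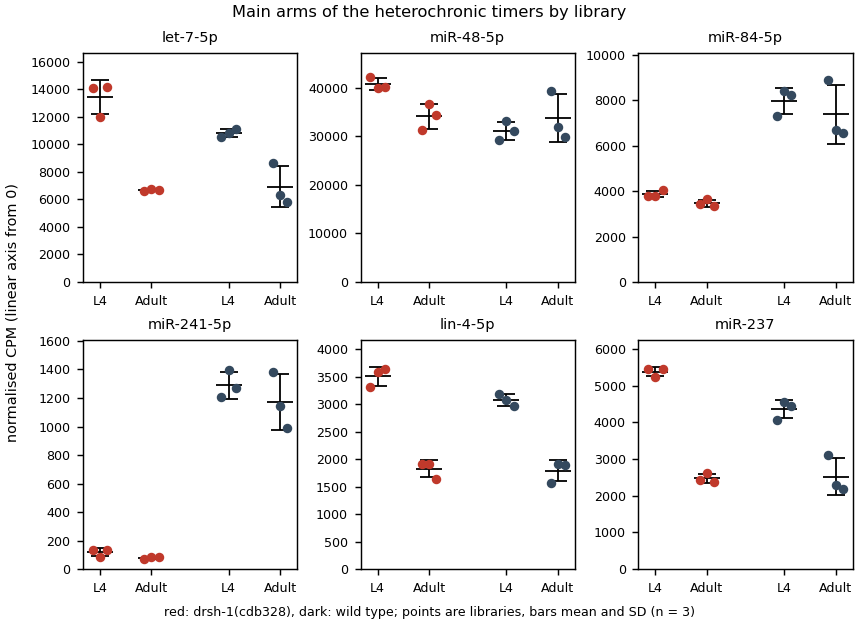
Normalised CPM (linear axes from 0) of the main arms of the 6 timers in each L4 and Adult library of drsh-1(cdb328) (red) and wild type (dark); points are libraries and bars the mean and SD (n = 3). In cdb328 let-7-5p (11995 to 14188 at L4, 6615 to 6774 in Adults), lin-4-5p and miR-237 are lower in all Adult libraries, while miR-241-5p overlaps between stages and is far below wild type at both.

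The plots of the timers set the falls of let-7-5p, lin-4-5p and miR-237 beside miR-84-5p, which did not pass, and miR-48-5p, whose call did not hold under most alternatives. The wider let-7 family, with mir-793, mir-794 and mir-795 added, had 7 of 12 arms lower, against 31.2% of all arms, and none higher, with a median of -0.52. With DESeq2's size factors 3 were lower, and with TMM without the miR-35 family 4. Its steepest fall was that of miR-795-5p, from 116, 80.9 and 178 normalised CPM at L4 to 45.01, 50.52 and 34.6 in Adults (-1.54 ± 0.26, SE; edgeR adjusted p = 3.07e-05). The L4 values were scattered but stayed above every Adult value.

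Outside the miR-35 family, the highest-read arm that more than doubled in cdb328 Adults was miR-51-5p, of the miR-51 family that acts in embryonic development. It stood at 32060, 22279 and 28437 normalised CPM at L4 and at 49016, 62483 and 62177 in Adults (1.07 ± 0.15, SE; edgeR adjusted p = 3.16e-06). Its family did not move as one: 1 of its 11 arms tested rose and 2 fell, where 16.3% and 31.2% of all arms did. The family median was -0.25, the same as over all arms. The relative miR-52-5p fell from 21397, 20189 and 20064 to 12426, 13315 and 11429 (-0.73 ± 0.10, SE; edgeR adjusted p = 2.97e-06).

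The neighbouring hairpins mir-73 and mir-74 on the X chromosome, 2368765 to 2369139 on the plus strand, gained star arms while their main arms did not pass. For miR-74-5p* the values were 42.7, 40.3 and 52.9 normalised CPM at L4 and 118, 135 and 140 in Adults (1.53 ± 0.19, SE; edgeR adjusted p = 8.03e-07). For miR-74-3p the change was -0.08 ± 0.16 (SE; edgeR adjusted p = 0.72). The arm miR-73-5p* rose by 1.37 ± 0.26 (SE), to a mean of 23.7 normalised CPM in Adults, and both star arms rose by a like amount in wild type (1.59 and 1.56).

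In the miR-238 family 2 of 5 tested arms were called higher, against 16.3% of all arms, with a median of 0.48 that was -0.16 when libraries were scaled on spike-ins. In worms mir-238 has been linked to a longer life and mir-239 to a shorter one. The main arm miR-238-3p went from 27946, 25391 and 26773 to 35931, 39554 and 38581 normalised CPM (0.51 ± 0.09, SE; edgeR adjusted p = 7.68e-05), a change of -0.12 on the spike-in scale. The rare miR-239a-3p* went from 27.2, 36.97 and 33.9 to 74.1, 113 and 109 (1.59 ± 0.20, SE; edgeR adjusted p = 8.60e-07) and was higher on all 5 scales.

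The stress-linked miR-34 gave its reads mostly to the arm that the file marks with a star. The values of miR-34-5p* were 279, 331 and 280 normalised CPM at L4 and 605, 643 and 580 in Adults (1.04 ± 0.13, SE; edgeR adjusted p = 9.38e-07), with no overlap. In wild type it rose by 0.93 ± 0.13. On the spike-in scale the change in cdb328 was 0.38 and not called (edgeR adjusted p = 0.0759). The other arm, miR-34-3p, had 12.7 to 20.2 normalised CPM over the 6 libraries and a change of -0.10 ± 0.25 (SE; edgeR adjusted p = 0.766).

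Some families held about the same summed share of reads at both stages. The miR-58 family, relatives of the fly miRNA bantam, took 19.4% ± 0.21 of miRNA reads at L4 and 20.3% ± 0.08 in Adults of cdb328 (SD, n = 3). Of its 8 arms 2 were higher and 2 lower, where 16.3% and 31.2% of all arms were, and none was higher on the spike-in scale. Its main arm miR-80-3p was at 78937, 78721 and 78012 normalised CPM at L4 and at 94773, 98195 and 99800 in Adults (0.31 ± 0.10, SE; edgeR adjusted p = 0.0131), but at -0.33 on the spike-in scale. For miR-58a-3p the change was 0.29 ± 0.14 (SE; edgeR adjusted p = 0.0978). The miR-51 family took 12.1% ± 0.06 and 12.1% ± 0.38, and the miR-64 family 10.91% ± 0.81 and 10.95% ± 0.30.

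The miR-64 family is mostly encoded in an intron of gcn-1 on chromosome III, where mir-229 to mir-66 span 2172452 to 2173206. Of its 10 arms, 4 were called higher and none lower in cdb328, against 16.3% and 31.2% of all arms. The median of 0.19 was -0.07 with total counts and -0.47 on the spike-in scale, where 7 were called lower. The rises were small, such as 0.32 ± 0.11 for miR-65-5p and 0.24 ± 0.09 for miR-66-5p (SE), and -0.32 and -0.41 on the spike-in scale. Both calls also depended on single libraries: miR-65-5p was not called without L4 replicate 3 (0.30) or Adult replicate 2 (0.25), and miR-66-5p not without L4 replicate 3 (0.20), Adult replicate 1 (0.24) or Adult replicate 2 (0.21).

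The steepest falls at or above 10 CPM were those of rare arms. The arm miR-246-5p* went from 43.2, 39.8 and 59.4 normalised CPM at L4 to 8.55, 10.2 and 18.1 in Adults (-1.93 ± 0.26, SE; edgeR adjusted p = 1.81e-06). The star arm miR-81-5p* of the miR-58 family went from 46.9, 57.1 and 69.3 to 17.1, 18.04 and 20.07 (-1.65 ± 0.22, SE; edgeR adjusted p = 1.81e-06). For both the lowest L4 library was more than double the highest Adult library.

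Other falls of more than 2-fold were those of miR-242-5p (-1.45 ± 0.21), miR-57-3p* (-1.37 ± 0.29), miR-799-3p (-1.24 ± 0.28), miR-255-3p (-1.20 ± 0.30), miR-1821-3p (-1.15 ± 0.20) and miR-789-1-5p (-1.14 ± 0.32), with SE. Each kept its stages apart and was lower on all 5 scales. In wild type all of them but miR-57-3p* also fell, and for miR-57-3p* the difference between the genotypes did not pass (edgeR adjusted p = 0.169).

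Of the neuronal list (lsy-6, mir-124 and mir-791), 1 of 4 arms fell, a share near the 31.2% of all arms. This was lsy-6-3p, which makes the left and right ASE taste neurons unlike, from 40.4, 31.6 and 35.8 to 18.8, 15.04 and 11.04 normalised CPM (-1.27 ± 0.26, SE; edgeR adjusted p = 0.000203). The nerve-cell miRNA miR-124-3p had a change of -0.30 ± 0.34 (SE; edgeR adjusted p = 0.489) at under 12.5 normalised CPM in every cdb328 library. The pair mir-46 and mir-47 had 3 of 4 arms lower, against 31.2% of all arms. With DESeq2's size factors or TMM without the miR-35 family 2 of the pair's arms were lower. For miR-46-3p the values were 5869, 4792 and 5755 at L4 and 3533, 3778 and 3335 in Adults (-0.62 ± 0.12, SE; edgeR adjusted p = 0.000183).

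The 2 arms of a hairpin did not always move together. Both arms were tested for 86 hairpins of cdb328. In 6 both rose, in 14 both fell, in 32 only 1 arm was called, in 30 neither was, and in 4 the arms were called in opposite directions. These 4 were mir-246, mir-44, mir-80 and mir-90. In wild type the difference between their arms had the same sign in all 4. That held for most of the 86 hairpins, so it was not particular to these 4.

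In mir-246, which has been linked to a longer life in worms, the fall of miR-246-5p* stood against a rise of miR-246-3p from 6094, 5664 and 5756 to 8250, 9091 and 8972 normalised CPM (0.59 ± 0.13, SE; edgeR adjusted p = 0.000463; -0.049 on the spike-in scale). In mir-80, miR-80-5p* fell from 916, 1018 and 975 to 480, 559 and 527 (-0.89 ± 0.11, SE; edgeR adjusted p = 4.58e-07) while miR-80-3p was called higher. The latter was not called higher with total counts and was at -0.33 on the spike-in scale. In mir-90, miR-90-5p* was at 0.56 ± 0.14 and miR-90-3p at -0.46 ± 0.09 (SE), and the first of these was -0.06 on the spike-in scale. On that scale mir-246, mir-80 and mir-90 did not keep opposite calls, while mir-44 did (1.16 for miR-44-5p* and -0.89 for miR-44-3p).

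In mir-44, miR-44-5p* rose from 38.96, 35.74 and 61.31 to 115, 166 and 180 normalised CPM (1.75 ± 0.28, SE; edgeR adjusted p = 1.80e-05), while miR-44-3p changed by -0.27 ± 0.10 (SE; edgeR adjusted p = 0.0298), a call lost without L4 replicate 1 (-0.23), L4 replicate 3 (-0.20), Adult replicate 1 (-0.25) or Adult replicate 3 (-0.27). The call was also lost with DESeq2's size factors (-0.13), TMM without the miR-35 family (-0.13), no filter (-0.20), the DESeq2 Wald test (-0.13) and a fit of only the groups compared (-0.08), which end the opposite call of this hairpin. The reads of miR-44-3p and miR-45-3p stood in a ratio of 0.98 to 1.01 in all 6 libraries, so the deposited counts do not tell these close copies apart. Their 5p arms did differ: miR-45-5p* fell by 0.63 ± 0.17 (SE; edgeR adjusted p = 0.00343). The hairpin mir-44 lies with mir-42 and mir-43 on chromosome II, 11889811 to 11890118 on the plus strand, and mir-45 at 11880944 to 11881039 on the minus strand.

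Within the mir-42 to mir-44 cluster the members gave unequal values in cdb328. Beside the rises of miR-42-3p and miR-44-5p*, miR-43-3p stood at 6.10, 4.11 and 4.95 normalised CPM at L4 and at 6.84, 6.02 and 6.52 in Adults (0.36 ± 0.41, SE; edgeR adjusted p = 0.489). In wild type it rose by 1.96 ± 0.34, and the difference between the genotypes did not pass (-1.59, edgeR adjusted p = 0.0874). At these levels each cdb328 library held 10 to 13 reads of it. The other arm, miR-43-5p*, was called higher in both genotypes, but in cdb328 it had 0, 0 and 2 reads at L4 and 6, 2 and 5 in Adults. Its fitted log2 change of 2.90 ± 1.05 (SE; edgeR adjusted p = 0.0265) depends on the prior count and was not called without L4 replicate 1 (2.46), L4 replicate 2 (2.38), Adult replicate 1 (2.58) or Adult replicate 3 (2.86).

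Whether the stage changes of the genotypes differed was tested as the change in cdb328 minus that in wild type. Of 215 arms, 7 (3.26%) passed, 2 higher (0.93%) and 5 lower (2.33%), and 52 had an unadjusted p below 0.05. Of the 13 arms called in cdb328 and not in wild type the difference passed for 1, and of the 55 called in wild type and not in cdb328 for 5. The call in one genotype alone therefore did not mark a difference for most of these arms.

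The arm that differed most clearly was miR-355-5p, encoded between genes on chromosome II, 11833536 to 11833645 on the minus strand. In cdb328 it stood at 302, 290 and 302 normalised CPM at L4 and at 675, 720 and 783 in Adults, a log2 change of 1.28 ± 0.12 (SE; edgeR adjusted p = 4.80e-08). In wild type it did not move beyond the spread of its libraries, with 2171, 1924 and 1792 at L4 and 2211, 2080 and 1648 in Adults (0.01 ± 0.12, SE; edgeR adjusted p = 0.935). The difference was 1.27 ± 0.17 (SE; edgeR adjusted p = 3.63e-05).

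At both stages miR-355-5p stayed below wild type in cdb328, 6.58-fold lower at L4 and 2.73-fold lower in Adults. Its difference was called under all 20 alternatives tried, from 1.21 to 1.56, and it was the 1 arm (0.465%) whose difference was called on all 5 scales. In drsh-1(cdb330), whose libraries share the fit but not the contrast, the stage change of this arm was 1.67 ± 0.13 (SE).

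The other 6 differences rested on the scaling and on single libraries. On the TMM scale the stage change in cdb328 was lower than in wild type for miR-72-5p by -0.55 ± 0.13 (SE; edgeR adjusted p = 0.0241), for miR-73-3p by -0.59 ± 0.15 (0.0421), for miR-42-3p by -0.89 ± 0.23 (0.0421), for miR-71-5p by -0.69 ± 0.18 (0.0432) and for miR-240-5p* by -0.80 ± 0.22 (0.0484). It was higher for miR-82-5p* by 1.08 ± 0.30 (0.0484). Among the 20 alternatives these were called 10, 6, 9, 6, 4 and 12 times. Over the alternatives their adjusted p ran up to 0.525, 0.474, 0.25, 0.382, 0.288 and 0.115.

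With total counts 9 differences were called, all higher, and on the spike-in scale 2, both higher, while TMM without the miR-35 family gave 2 higher and 3 lower and DESeq2's size factors gave miR-355-5p alone. Leaving out 1 library also moved the count. It was 9 without wild-type L4 replicate 3, 8 without cdb328 L4 replicate 2, 6 without wild-type Adult replicate 1 and 5 without wild-type Adult replicate 2. It was 1 without cdb328 L4 replicate 1 or Adult replicate 1, 2 without cdb328 Adult replicate 3 or wild-type L4 replicate 2, 3 without cdb328 Adult replicate 2 or wild-type Adult replicate 3, and 4 without cdb328 L4 replicate 3 or wild-type L4 replicate 1.

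Of these arms miR-71-5p, which in worms is linked to lifespan and neuronal asymmetry, was the most changed by genotype. In wild type it rose from 83254 ± 6424 to 158034 ± 27042 normalised CPM (SD, n = 3). In cdb328 it stood at 3656, 3371 and 3474 at L4 and at 3833, 4367 and 4196 in Adults (0.24 ± 0.13, SE; edgeR adjusted p = 0.133), with Adults above L4 in every library. The level was 23.8-fold lower than in wild type at L4 and 38.3-fold lower in Adults.

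In the miR-72 family the difference was called for 2 of 6 arms on the TMM scale, against 3.26% of all arms. The star arms miR-73-5p* and miR-74-5p* rose in both genotypes. For miR-72-5p the cdb328 values were 7684, 8178 and 7704 at L4 and 8679, 9261 and 8314 in Adults (0.16 ± 0.09, SE; edgeR adjusted p = 0.152), against 17155 ± 651 and 27919 ± 2907 in wild type (SD, n = 3). Its relative miR-73-3p went from 1517, 1456 and 1532 to 1202, 1286 and 1289 (-0.25 ± 0.11, SE; edgeR adjusted p = 0.0566). For miR-42-3p the wild-type Adults were spread, at 490, 545 and 854 normalised CPM, and the difference was not called without the last of them.

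The remaining pair were rarer star arms. In cdb328 miR-82-5p* had 25.4, 34.9 and 41.1 normalised CPM at L4 and 21.7, 28.9 and 28.6 in Adults, so the stages overlapped, while in wild type it fell from 142 ± 17.7 to 51.6 ± 13.4 (SD, n = 3). The arm miR-240-5p* overlapped in cdb328 as well (-0.04 ± 0.16, SE) and rose in wild type by 0.76 ± 0.15.

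**Figure D4:**
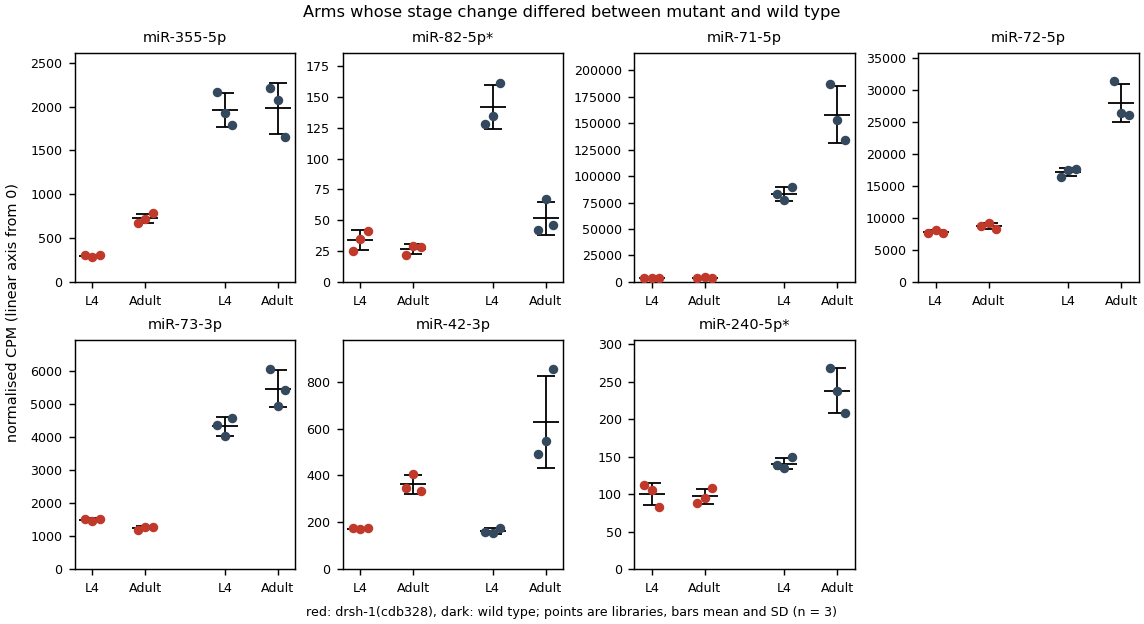
Normalised CPM (linear axes from 0) of the 7 arms whose stage change differed between drsh-1(cdb328) (red) and wild type (dark) on the TMM scale; points are libraries and bars the mean and SD (n = 3). For miR-355-5p the cdb328 Adults (675 to 783) lie above L4 (290 to 302) while the wild-type stages overlap; for miR-71-5p both cdb328 stages lie near 0 on the axis set by wild type.

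The panels of these 7 arms show that 6 of them were lower in cdb328 than in wild type at both stages, with miR-42-3p the exception at L4, where its level differed by 0.09 ± 0.17 (SE; edgeR adjusted p = 0.67). The hairpins known from these same libraries to be lower in cdb328 than in wild type (13 hairpins, chosen on these samples and so no independent evidence) had 23 arms tested. Of these 3 rose and 8 fell with stage in cdb328, shares near those of all arms (16.3% and 31.2%), with a median of -0.25. With DESeq2's size factors 7 were higher and 6 lower, and on the spike-in scale 2 and 16. In wild type 6 rose and 10 fell, with a median of -0.19. Among them miR-77-3p rose alike in both genotypes, from 24011, 23968 and 20739 to 41461, 46161 and 39346 normalised CPM in cdb328 (0.89 ± 0.12, SE) and by 0.88 ± 0.12 in wild type. On the spike-in scale its change in cdb328 was 0.23 and not called (edgeR adjusted p = 0.275). The arm miR-86-5p fell from 904, 883 and 836 to 586, 606 and 567 in cdb328 (-0.58 ± 0.11, SE; edgeR adjusted p = 0.00019).

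Other arms of the fixed set did not pass in cdb328. The muscle miRNA miR-1-3p had 153117, 120795 and 140967 normalised CPM at L4 and 115296, 120481 and 129112 in Adults (-0.19 ± 0.13, SE; edgeR adjusted p = 0.23), with overlapping stages. The mirtron arm miR-62-3p, which is released by splicing in place of Drosha, changed by -0.09 ± 0.14 (SE; edgeR adjusted p = 0.628), and miR-54-3p by 0.18 ± 0.12 (SE; edgeR adjusted p = 0.237). The single arm tested of the mirtron list gives no group result.

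**Figure D5:**
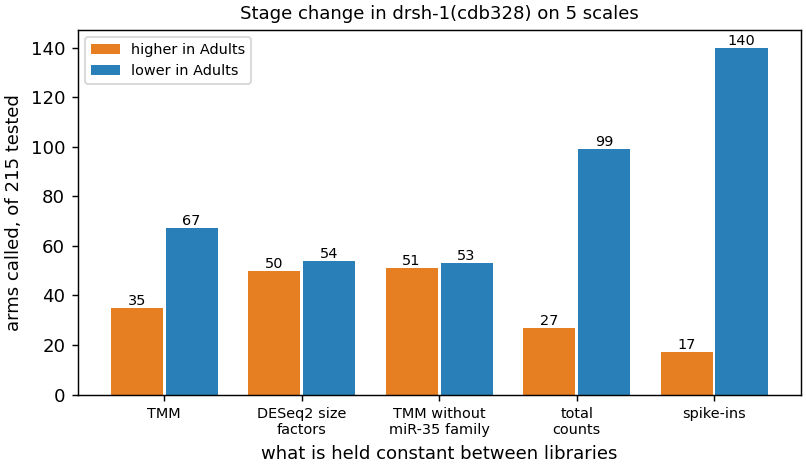
Number of the 215 tested arms called higher (orange) or lower (blue) in Adults against L4 of drsh-1(cdb328), for 5 choices of what is held constant between libraries. The count of higher arms runs from 17 to 51 and that of lower arms from 53 to 140.

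The split between rises and falls depended on the scale, as the bars of the 5 scales show. Of the calls, 34.3% were higher with TMM, 48.1% with DESeq2's size factors (50 higher, 54 lower), 49.0% with TMM computed without the miR-35 family (51 and 53), 21.4% with total counts (27 and 99) and 10.8% on the spike-in scale (17 and 140). The median of all arms moved by 0.14, 0.14, -0.25 and -0.63 on these 4 scales relative to TMM. The results above are therefore relative to the bulk of the miRNAs.

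On all 5 scales 17 arms (7.91%) were higher and 52 (24.2%) lower in cdb328 Adults. These hold 9 of the 16 miR-35 family arms and 4 of the 11 timer arms, among them let-7-5p, lin-4-5p and miR-237. Even on the spike-in scale the miR-35 family had a median of 0.62, against -0.87 for all arms.

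Set against the spike-ins, the total of miRNA reads in cdb328 Adults was 0.766 of that at L4. The log2 difference was -0.39 ± 0.15 (SE), and the exact two-sided permutation test gave p = 0.1, the smallest that 3 against 3 libraries allow. The stages were barely apart, however. The lowest L4 library (replicate 3) and the highest Adult library (replicate 3) were nearly equal, at 2.05841e+06 and 2.0584e+06 reads per spike-in factor. In wild type the ratio was 0.848 (exact permutation p = 0.4). Per summed spike-in read the ratios were 0.771 in cdb328 and 0.808 in wild type (exact permutation p = 0.1 for each), and the difference between the genotypes was not tested. The labels do not say that equal spike-in was added per worm or per amount of RNA, so this total was not read as miRNA per animal.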

How the data were processed

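Small RNA of whole worms was cloned with the NEBNext kit from total RNA, per the labels' protocols. The deposited table holds reads per mature arm of 138 hairpins and 10 plant spike-ins, per the file headers. HTSeq is named, per the submitters' processing notes, while aligner, trimming and genome build are not given in these sources. The authors' deposited values were handled as estimated counts, because 96 values of the 6 cdb328 libraries lie midway between whole numbers, and these were rounded up. How reads shared by close copies were divided is not given.

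The fit used edgeR 4.0.16 (R 4.3.3, limma 3.58.1) on 18 libraries with 1 coefficient for each of 6 groups, TMM over the miRNA arms, filterByExpr with a minimum count of 10 and a minimum total of 15, glmQLFit and glmQLFTest. Benjamini-Hochberg adjustment covered the 215 arms tested, with a threshold of 0.05. The F statistic gave the standard errors, and the biological coefficient of variation was 0.123. The script was tested on simulated data. Of 18 library pairs within groups, none agreed within sampling noise (lowest chi-square per degree of freedom 17.5).

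Alternatives were DESeq2's size factors, total counts, a spike-in scale (median of ratios over 10 spike-ins), TMM without the miR-35 family, no filter, DESeq2 1.42.0, fits of only the groups compared, the replicate block, and each library left out. The table of libraries cloned by the other method was not used here. Named arms follow a rule: the 12 largest rises and falls of at least 10 CPM with stages apart, up to 8 differences each way, a fixed set of main arms, the arms of hairpins called in opposite directions and, per list, the 2 to 4 arms of smallest p; miR-74-3p, miR-43-3p, miR-35-5p* and miR-37-5p* were added after their values were seen. Arms and lists were chosen with earlier results of these data known. Coordinates are those of the Ensembl annotation of WBcel235, matched by name for 136 of 138 hairpins.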

Additional observations from a re-analysis of the deposited data

Results flagged for a closer look

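In 7 arms the stage change differed between cdb328 and wild type by the test of the difference itself (edgeR's quasi-likelihood test, adjusted p below 0.05). The stage change in cdb328 minus that in wild type, on the log2 scale, was 1.27 for miR-355-5p, where the cdb328 arm rose and the wild-type arm stayed within its spread. It was 1.08 for miR-82-5p*, -0.55 for miR-72-5p, -0.59 for miR-73-3p, -0.89 for miR-42-3p, -0.69 for miR-71-5p and -0.80 for miR-240-5p*. Of these, miR-355-5p alone was called under all 20 alternatives tried. The cause of these differences was not tested.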

How the results depend on the processing

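The number of arms that changed with stage in cdb328 was 102, and 99 to 126 under the alternatives that use all 6 cdb328 libraries, except 157 on the spike-in scale, where the fit held a single spread for all arms; leaving out 1 library gave 89 to 100. In wild type leaving out 1 library gave 128 to 144, against 144. The number of differences between the genotypes was 7, and it was 1 with DESeq2's size factors, 2 on the spike-in scale, 2 with no filter, 12 with the DESeq2 Wald test, 11 in a fit of only the groups compared, and 1 to 9 with 1 library left out. The total of miRNA reads per spike-in kept its direction in cdb328, at -0.38 with summed spike-in reads. With the replicate number as a block the stage counts were 99 and 144 and the difference count 10. The correlations of same-numbered cdb328 libraries were 0.06, -0.11 and -0.01, and those of differently numbered ones ran from -0.18 to 0.19. With 3 libraries per stage such values cannot decide whether same-numbered libraries belong together. The labels give only the number, and no pairing was assumed.

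Named arms whose change was above 0 and turned negative on the spike-in scale were miR-238-3p (-0.12), miR-246-3p (-0.049), miR-54-3p (-0.46), miR-58a-3p (-0.34), miR-65-5p (-0.32), miR-66-5p (-0.41), miR-71-5p (-0.40), miR-72-5p (-0.50), miR-80-3p (-0.33) and miR-90-5p* (-0.057). With total counts miR-54-3p (-0.072), miR-66-5p (-0.011), miR-71-5p (-0.013) and miR-72-5p (-0.099) did so. These scales shift the median of all arms by -0.63 and -0.25. Counting depth limits arms under about 10 CPM, where a library holds few reads.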
